A study of Arabidopsis thaliana with 9 samples.

Results

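The baseline transcriptome of untreated wild-type Arabidopsis seedlings is described from the 3 untreated wild-type libraries, of 9 libraries in the series. They were chosen as the untreated columns of the deposited table that also holds the doxycycline libraries. The seedlings were accession Col-0, grown for 14 days on solid MS medium (a mineral medium for plants, here at reduced strength), after which liquid medium without drug was added for 12 h. The other groups, which are not used here, had 3 libraries each: Col-0 with doxycycline at 25 µg/ml in that medium for 12 h, and the mutant mrpl1-1 with the medium alone. By its title the series is about plants whose mitochondria translate poorly, and every sample was a whole-seedling RNA pool enriched for polyA transcripts and sequenced on an Ion Torrent Proton instrument. Values are FPKM, read fragments normalised to transcript length and to library size, so levels of different genes are compared per length. The design text states 3 biological replicates per condition. With one group there is no contrast and no test: levels, their SD over n = 3 and the coefficient of variation (CV, the SD divided by the mean) are given as descriptions.

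A green seedling of this age lives mainly from its leaves. Its cells fix carbon with Rubisco and the Calvin cycle, driven by light that antenna proteins collect for photosystems I and II, and they release energy in mitochondria through the tricarboxylic acid cycle and the respiratory chain. Plastids and mitochondria keep small genomes of their own, but most of their proteins are encoded in the nucleus, often by small families of related genes. Roots and shoots also carry transcripts that mark single tissues, such as root hairs, the endodermis, guard cells or the epidermis.

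Sequencing depth differed between the libraries. Depth recovered from the smallest steps between low values came to 9.27, 6.45 and 3.56 M reads on annotated nuclear loci in replicates 1, 2 and 3, so that 1 read in a transcript of 1 kb was worth 0.121, 0.173 and 0.323 FPKM. A count of 3 reads in 1 kb, taken as the floor for a value listed at 0, corresponded to 0.363, 0.518 and 0.968 FPKM, and it covers counting error only. Replicates 1 and 2 were the closest pair (Pearson r of log2(FPKM + 1) of 0.965 across 19069 loci, which are not independent replicates), against 0.933 and 0.930 for replicate 3 with replicates 1 and 2. Replicate 3 was thus both the shallowest library and the one that stood apart. Markers of organs that the seedlings should hold little of were near 0: 8 of 9 seed storage and oil-body genes were listed at 0 in all 3 libraries (CRA1, CRB, CRC, SESA1, SESA2, SESA3, OLEO1 and OLEO2), and SESA4 read 1.28, 0 and 0 FPKM. The flower genes SEP3, PI, AP3 and AG read at most 2.33 FPKM in any library, and the pollen genes AGP6, AGP11 and PPME1 at most 1.99, with VGD1 and ADF7 listed at 0.

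Some of the most abundant loci belong to families of similar copies, and the letters of a few copies show what reads had to separate. Of the 100 most abundant nuclear protein-coding loci, 52% shared a stretch of 31 bases with another locus. The share was 44.9% over those with at least 1 FPKM. The small subunit of Rubisco, the enzyme that fixes carbon dioxide, is encoded by RBCS1A on chromosome 1 (chr1:25048158-25049667, minus strand) and by a cluster of RBCS1B, RBCS2B and RBCS3B on chromosome 5 (chr5:15376988-15385320, minus strand). Over the whole coding sequence RBCS1A was identical to the other copies at 90.4% to 90.6% of bases, and the clustered copies to each other at 96.7% to 97.3%. The stretch of 90 coding bases with most differences is shown from base 15 to base 104 of the coding sequence, 5′ to 3′, from RefSeq's TAIR10.1, with the 23 positions that differ between any of the copies in capitals.
RBCS1A: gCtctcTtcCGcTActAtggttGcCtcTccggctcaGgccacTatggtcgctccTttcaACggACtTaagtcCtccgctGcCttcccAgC
RBCS1B: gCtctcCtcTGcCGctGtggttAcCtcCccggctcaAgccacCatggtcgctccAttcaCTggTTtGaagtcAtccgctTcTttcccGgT
RBCS2B: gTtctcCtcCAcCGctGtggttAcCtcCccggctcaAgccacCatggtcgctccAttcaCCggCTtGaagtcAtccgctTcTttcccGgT
RBCS3B: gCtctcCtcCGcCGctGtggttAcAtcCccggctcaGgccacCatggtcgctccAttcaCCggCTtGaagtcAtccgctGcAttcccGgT

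The main antenna protein of photosystem II, LHCB1, binds chlorophyll a and b and is encoded by 5 genes, of which LHCB1.1, LHCB1.2 and LHCB1.3 lie side by side on chromosome 1 (chr1:10472280-10479114; LHCB1.3 on the plus strand and the other copies on the minus strand). Their coding sequences of 804 bases were identical at 95.6% to 96.4%. The first 90 coding bases are shown in the same way, with the 9 positions that differ in capitals.
LHCB1.1: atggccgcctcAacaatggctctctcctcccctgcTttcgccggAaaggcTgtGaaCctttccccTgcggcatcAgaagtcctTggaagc
LHCB1.2: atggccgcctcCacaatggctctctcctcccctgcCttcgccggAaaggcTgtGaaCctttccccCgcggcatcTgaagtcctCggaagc
LHCB1.3: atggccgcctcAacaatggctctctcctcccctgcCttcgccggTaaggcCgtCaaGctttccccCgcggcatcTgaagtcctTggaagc

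Promoters of the gene groups carried short motifs at different rates, counted on both strands in 300 bases around the annotated start (250 before and 50 after). The G-box, CACGTG, was in 17 of 45 promoters of light-harvesting and photosystem genes, 37.8% (Wilson 95% interval 25.1 to 52.4%), against 7.78% of all 26687 nuclear protein-coding promoters. The I-box, GATAAG, was in 42.2% of the same 45 against 14.6% of all, and none of the 45 held the telo-box, AAACCCTA. Promoters of 303 ribosomal protein genes, a product-name set that differs by a name filter from the 293 loci whose levels are given further on, had other motifs: 116 held the telo-box, 38.3% (33.0 to 43.9%) against 6.17% of all, 65.3% held site II (TGGGCC or TGGGCT) against 22.0%, and 17.8% held the I-box. Among 19 clock genes 5 held the evening element AAAATATCT, 26.3% (11.8 to 48.8%) against 2.85% of all. The G-box was in 9 of these 19, 47.4% (27.3 to 68.3%), and in 31.6% in the 250 bases before the start alone, so it was not particular to the photosynthesis genes. In the 250 bases before the start alone, the light-harvesting and photosystem promoters held the G-box in 24.4% (6.57% of all promoters) and the I-box in 22.2% (12.5 to 36.3%, against 12.2% of all), and the ribosomal protein promoters held the telo-box in 15.8% (4.45% of all). The interval covers counting error only, and a match of letters is not a bound site. The 250 bases before the start of PSBQ2, AT5G15200 and LUX are shown as examples, 5′ to 3′ on the strand of the gene, from RefSeq's TAIR10.1. They were chosen to show the motifs and are not typical promoters. Each is the most abundant member of its group that holds the group's motifs there. These were G-box and I-box for PSBQ2, telo-box and site II for AT5G15200, and the evening element for LUX. PSBQ2 encodes a photosystem II subunit (chr4:2673244-2673493, minus strand), AT5G15200 a ribosomal protein S4 (chr5:4936430-4936679, minus strand) and LUX a transcription factor of the evening complex of the clock (chr3:17182792-17183041, plus strand). Capitals mark 2 G-boxes and an I-box in PSBQ2, 4 site II motifs, a telo-box and 2 TATA boxes (TATAAA) in AT5G15200, and a G-box, an evening element and 2 matches to CCGAC, the core of the cold-response element, in LUX.
PSBQ2: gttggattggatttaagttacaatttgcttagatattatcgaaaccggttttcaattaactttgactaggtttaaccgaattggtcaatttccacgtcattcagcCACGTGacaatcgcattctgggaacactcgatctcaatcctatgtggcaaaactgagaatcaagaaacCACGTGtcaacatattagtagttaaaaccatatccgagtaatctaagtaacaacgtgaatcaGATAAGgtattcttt
AT5G15200: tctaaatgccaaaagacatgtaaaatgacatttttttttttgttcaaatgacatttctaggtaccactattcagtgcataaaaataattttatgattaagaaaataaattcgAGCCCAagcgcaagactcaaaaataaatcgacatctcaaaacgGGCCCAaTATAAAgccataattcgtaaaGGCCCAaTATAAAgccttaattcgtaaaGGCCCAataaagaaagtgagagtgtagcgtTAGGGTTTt
LUX: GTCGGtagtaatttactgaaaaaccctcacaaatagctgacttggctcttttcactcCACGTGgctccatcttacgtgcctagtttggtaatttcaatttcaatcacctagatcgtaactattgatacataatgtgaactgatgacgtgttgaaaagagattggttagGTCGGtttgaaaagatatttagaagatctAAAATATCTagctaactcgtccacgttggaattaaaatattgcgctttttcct

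Transcripts of photosynthesis led the seedling's messages. Of 33557 loci, 19069 (56.8%) had a mean of at least 1 FPKM and 10611 were listed at 0 in all 3 libraries. Among 26170 nuclear protein-coding loci with a transcript of at least 300 nt, 9854 reached 10 FPKM, 1246 reached 100 and 77 reached 1000. Of these 26170 loci, 651 together held 50% of their own summed mean FPKM. The 100 most abundant of these protein-coding loci held 22.0 ± 0.398% (SD, n = 3) of all FPKM. Of the 100, 36 belonged to the lists of photosynthesis and held 48.3% of the FPKM of the 100, 11 were in the lists of ribosomal proteins by product name, 5 were glycine-rich RNA-binding proteins or metallothioneins, and 4 translation factors or ubiquitins. One gene came from the respiration lists, the ADP/ATP carrier AAC1, and one from the aquaporins, TIP2;1. Transcripts of the 100 were short, with a median of 1070 nt against 1736 nt over protein-coding loci with at least 1 FPKM.

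RBCS1A had the highest mean of any locus, at 10248, 8882 and 11592 FPKM in replicates 1, 2 and 3, which is 1.32% of all FPKM. LHCB1.3 came second at 7865, 9456 and 6212 FPKM, and was the highest or the second highest locus in every library. RBCS3B followed at 5536, 4722 and 5608 FPKM. Behind these photosynthesis genes stood TCTP, the conserved translationally controlled tumor protein that acts in growth, at 3371, 3288 and 6044 FPKM. AT3G22235, a short protein with a cysteine-rich transmembrane module, read 4236, 2666 and 4590 FPKM, but 72.8% of its 31-base stretches also occur in other transcripts, so its level is uncertain. CP12-1, the small redox switch that binds enzymes of the Calvin cycle in the dark, read 2657, 2675 and 5352 FPKM, and was the highest in replicate 3. The plot of the 20 most abundant loci shows that the order of neighbours changes with the replicate: LHCB1.3 was above RBCS1A in replicate 2 and TCTP above RBCS3B in replicate 3.

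**Figure D1:**
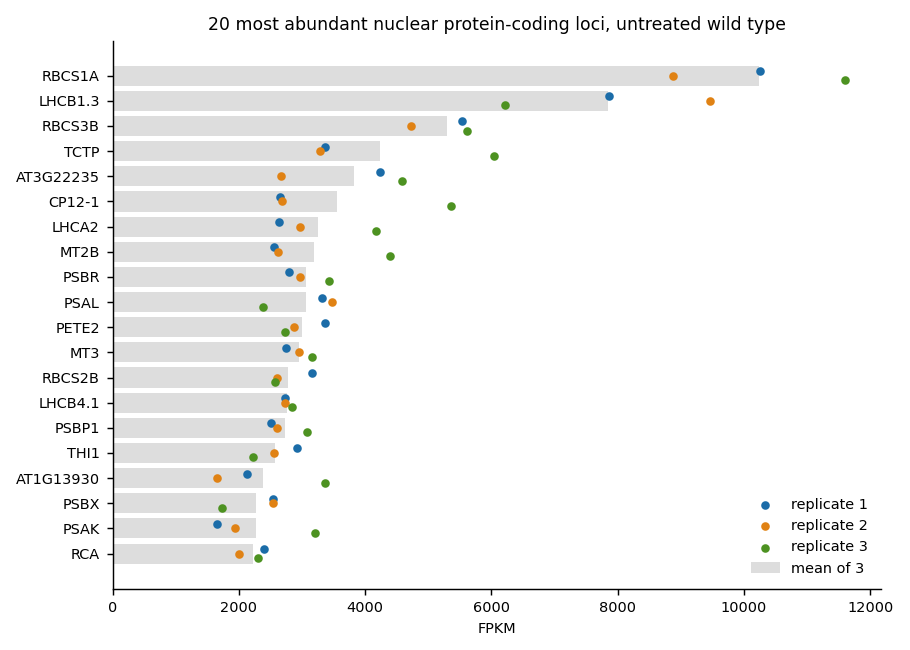
FPKM of the 20 most abundant nuclear protein-coding loci in untreated wild-type seedlings; grey bars are means of 3 libraries and coloured points are the libraries. RBCS1A and LHCB1.3 are the highest loci in every library, and TCTP, CP12-1, MT2B and PSAK are each highest in replicate 3.

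The genes of light harvesting and the photosystems were present throughout. All 80 nuclear genes of the 5 photosynthesis lists had at least 1 FPKM and 77 at least 10, and together they held 13.03 ± 0.460% (SD, n = 3) of nuclear protein-coding FPKM. Within the antenna, LHCB1.3 made up 86.0 ± 1.59% of the LHCB1 family and was 15.1 times LHCB1.5, although 38.6% of its 31-base stretches recur in other transcripts. LHCA2, an antenna of photosystem I, read 2641, 2961 and 4179 FPKM and held 55.7% of the LHCA family. The minor antenna LHCB4.1 was among the steadiest abundant genes, at 2724, 2729 and 2837 FPKM (CV 0.0230), while LHCB1.4 varied most in the list, at 409, 482 and 165 FPKM.

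Subunits of photosystem I had a median of 1201 FPKM and those of photosystem II a median of 1173 FPKM. PSAL, which joins the antenna to photosystem I, read 3318, 3481 and 2375 FPKM, and PSAF, which takes part in docking plastocyanin, read 1409, 1570 and 647 FPKM. Of 12 photosystem I genes 8 were lowest in replicate 3, against 40.02% of all 9854 protein-coding genes that averaged 10 FPKM or more. On the water-splitting side of photosystem II, PSBO1, which stabilises the manganese cluster, was the steadiest gene of the 100 most abundant, at 2013, 1981 and 1937 FPKM (CV 0.0191). PSBP1 supplied 99.9% of its pair and was 928 times PSBP2, whereas PSBQ2 supplied only 55.6% of the PSBQ pair. PSBY, a small membrane subunit, was the most variable of the list at 759, 716 and 280 FPKM.

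Electron carriers were split as unevenly. PETE2, the plastocyanin that carries electrons to photosystem I, held 90.7 ± 1.08% of its pair at 3367, 2881 and 2731 FPKM. The leaf ferredoxin FD2 held 80.3 ± 5.29% of its pair at 1943, 2524 and 1697 FPKM. The ferredoxin reductases FNR1 and FNR2 could not be ranked: FNR1 held 50.3% and was the higher in 2 of 3 libraries. In the Calvin cycle, RBCS1A held 53.0 ± 2.42% of the Rubisco small subunit, 1.94 times RBCS3B. RCA, the activase that frees Rubisco's active site, read 2397, 1997 and 2297 FPKM. Single copies also dominated phosphoglycerate kinase (PGK1, 84.7%), transketolase (TKL1, 98.1%) and CP12 (CP12-1, 80.3%), whereas GAPB held 41.9% among 3 glyceraldehyde-phosphate dehydrogenase subunits. Photorespiration, which recovers carbon lost when Rubisco binds oxygen, held 0.701 ± 0.0509% of nuclear FPKM and had a median CV of 0.0781, below the 0.140 of all genes; GOX1, a glycolate oxidase, led it at 692, 629.5 and 649 FPKM.

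Transcripts of the organelle genomes were a small share in these polyA libraries. Plastid-encoded loci held 1.78, 2.16 and 2.50% of all FPKM in replicates 1 to 3 (2.15 ± 0.360%), and mitochondrion-encoded loci 0.180, 0.217 and 0.213% (0.203 ± 0.0201%). Of 133 plastid loci 90 had at least 1 FPKM, and of 146 mitochondrial loci 34 did. Nuclear tRNA loci (623) and rRNA loci (4) were listed at 0 in all 3 libraries. Organelle transcripts mostly lack long polyA tails, so these are shares of polyA-enriched RNA and not of the RNA of the cell.

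Few loci carried the mitochondrial signal, whereas the highest plastid locus held 12.7% of the plastid signal. Organelle loci are given by identifier because the annotation used here names none of them. Messages, ribosomal RNA and other RNA of the organelles, such as tRNA, are therefore not told apart here. Their transcript lengths were not matched either, so loci under 300 nt were not left out. The FPKM of a very short locus is uncertain, and so is its rank. The highest plastid locus, ATCG00090, read 2674, 2159 and 1540 FPKM, and was highest in replicate 1. ATCG00490 read 970, 1135 and 2114 FPKM and ATCG00020 1001, 1193 and 1747 FPKM, both highest in replicate 3. ATCG00470 was the steadiest of the 10 highest at 1147, 1090 and 1217 FPKM (CV 0.0552), and ATCG00390 the least steady at 223, 319 and 1183 FPKM. Among mitochondrial loci, ATMG00030 (285, 479 and 655 FPKM), ATMG01390 (316, 416 and 375), ATMG00020 (239, 298 and 424) and ATMG01380 (422, 211 and 112) held most of the signal. ATMG01070 was listed at 0, 152 and 0 FPKM, and every other mitochondrial locus had a mean of at most 12.9 FPKM. The rank of a single organelle locus thus depended on the library.

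Respiration genes were lower than photosynthesis genes and steady between the libraries. The 103 nuclear genes of the respiration lists held 1.32 ± 0.0419% (SD, n = 3) of nuclear FPKM, 94 of them had at least 1 FPKM, and the 87 with a mean of at least 10 FPKM had a median CV of 0.108 against 0.140 over all 9854 genes. By complex, the mean shares of nuclear FPKM were 0.189% (0.173, 0.180 and 0.213% in replicates 1, 2 and 3) for complex I (NADH dehydrogenase), 0.0667% for complex II (succinate dehydrogenase), 0.232% for complex III with cytochrome c, 0.132% for complex IV (cytochrome oxidase) and 0.228% for the ATP synthase. In the plot of both groups the medians of the respiratory complexes lie below those of every photosynthesis list.

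**Figure D2:**
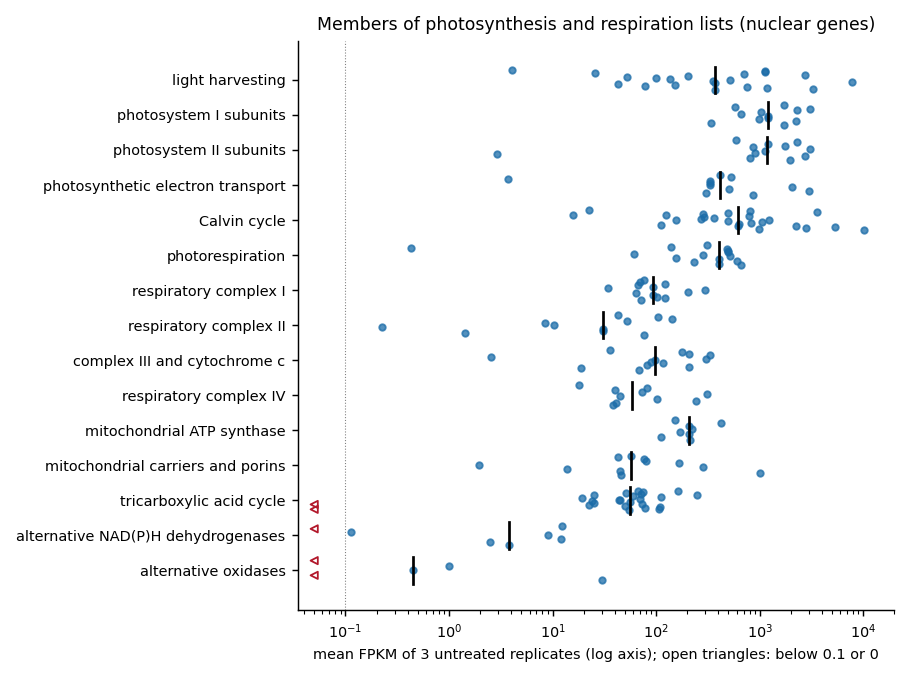
Mean FPKM (log axis) of each nuclear gene of the photosynthesis and respiration lists in untreated wild-type seedlings; each point is a gene, the black bar is the median of the list, and open triangles are genes below 0.1 FPKM. Photosystem medians lie near 1201 and 1173 FPKM, the complex I median at 92.4 FPKM, and the alternative oxidases below 1 FPKM except AOX1A.

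Complex I was led by FRO1, here FROSTBITE1, an iron-sulfur subunit of 18 kDa, at 209, 202 and 486 FPKM; its CV of 0.542 made it the one respiration gene over 0.5 among the 87 that averaged 10 FPKM or more. NDUS7, a subunit on the path of electrons to ubiquinone, was the steadiest of the complex at 203, 208 and 201 FPKM. The plant-specific carbonic anhydrase domain was shared among 5 genes, CAL1 holding 31.2%. In complex II, the flavoprotein SDH1-1 read 72.6, 70.5 and 84.9 FPKM and supplied 98.1 ± 0.556% of its pair, 53.4 times SDH1-2. The iron-sulfur subunits SDH2-1 and SDH2-2 had almost the same mean, 1.00 to 1, and SDH2-1 led in 1 of 3 libraries. The plant-specific subunit SDH5 was the highest of the list, at 147, 154 and 130 FPKM.

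In complex III, QCR7-1 supplied 99.1% of its pair (119 times QCR7-2) at 239, 236 and 443 FPKM, and QCR8-1 60.8% of its own. The mitochondrial processing peptidase, which in plants is part of complex III, was represented by MPPB at 183, 198 and 237 FPKM. Cytochrome c, the mobile carrier between complexes III and IV, came at 83.6 ± 4.297% from CYTC-1 (174, 181 and 184 FPKM). The highest gene of complex IV was COX6A at 317, 329 and 286 FPKM, followed by COX5C-1 at 192, 214 and 324. For the ATP synthase, the catalytic beta subunit genes ATP2-1 (220, 222 and 192 FPKM) and ATP2-3 (227, 222 and 180) differed in mean by a ratio of 1.01, less than their spread, and ATP2-1 led in 1 of 3 libraries.

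Both carriers of the inner membrane came mostly from single genes, the porins of the outer membrane less so. AAC1, which exchanges ADP for ATP, read 1028, 1059 and 967 FPKM and was 22.8 times AAC2. The phosphate carrier MPT3 held 99.3% of its pair at 258, 292 and 302 FPKM, and the porin VDAC1 held 45.7% of 4 porins. In the tricarboxylic acid cycle all citrate synthase signal came from CSY4, since CSY5 was listed at 0, and malate dehydrogenase came at 90.4% from MMDH1 (284, 294 and 163 FPKM). The aconitases ACO3 and ACO1 were within a ratio of 1.02 of each other.

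The non-phosphorylating bypasses were low in the untreated seedlings. Of the alternative oxidases, which pass electrons from ubiquinol straight to oxygen, AOX1A read 24.0, 22.1 and 43.5 FPKM and held 94.7 ± 3.32% of the family. AOX1D read 1.37, 0.653 and 0.9699 FPKM, where the floor of 3 reads in 1 kb was 0.363, 0.518 and 0.968. It was thus near that floor in replicates 2 and 3. AOX1B was listed at 0. Among the type II NAD(P)H dehydrogenases, which oxidise NAD(P)H without pumping protons, NDC1 (12.2, 10.6 and 14.3 FPKM) and NDB1 (11.7, 12.2 and 12.0) were level, NDB2 read 9.28, 8.76 and 8.87, and NDB3 and NDB4 were listed at 0 in replicates 2 and 3.

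Over 62 families or subunit sets, the same gene dominated in all 3 libraries in 53, the dominant gene held over 90% in 11 and under 50% in 16, and its median share was 61.5%. Without replicate 3 another gene led in 5 families, among them SDH2, the ATP synthase beta subunit and the metallothioneins. Weighting by transcript length changed the leading gene in 8.

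The lists of ER body proteins, peroxidases and aquaporins, which were not taken as root markers, held some of the most abundant transcripts of the seedling. The lists of root markers were moderate to low. The proteins of ER bodies, which store beta-glucosidases for defence, were led by BGLU23 at 1477, 1236 and 1139 FPKM and by PBP1, a jacalin-related lectin that binds it, at 957, 814 and 813. The lectin JAL33 was among the steadiest genes of the seedling at 226, 226 and 227 FPKM (CV 0.00369). One class III peroxidase, PRX42, held 52.5 ± 3.82% of 23 peroxidases at 1432, 1376 and 1178 FPKM, 7.39 times PRX32. Such cell-wall enzymes occur in shoots as well as roots, and in a whole-seedling pool fewer cells of a type and less RNA per cell cannot be told apart.

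Aquaporins, the water channels of the plasma membrane and vacuole, held 0.765 ± 0.123% of nuclear FPKM. The vacuolar TIP2;1 read 764, 1082 and 667 FPKM and TIP1;1 832, 831 and 547, with TIP2;1 the higher in 2 of 3 libraries. The plasma-membrane channel PIP1;2 read 729, 737 and 667 FPKM and held 43.7% of the PIP1 group. TIP1;2 was the most variable at 750, 821 and 353 FPKM, and TIP2;2 the steadiest at 198, 201 and 200. Of 19 aquaporins with at least 10 FPKM, 14 were highest in replicate 2, against 28.04% of all genes. TIP1;3 and TIP3;2, known from pollen and seed, were listed at 0.

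Transporters of root mineral uptake were moderate and steady, with a median CV of 0.0919 over 14 genes. The ammonium transporter AMT1;1 read 119, 96.2 and 116 FPKM, although 98.4% of its 31-base stretches also occur in transcripts of other loci, which may overlap it. NRT1.1, the dual-affinity nitrate transporter and sensor, read 99.8, 108 and 97.3 FPKM, and the sulfate transporter SULTR1;2 47.6, 42.8 and 42.7. PHT1;1, a phosphate transporter, was the least variable at 37.9, 37.6 and 36.6 FPKM, and NRT2.2 was listed at 0.

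Genes of defined root cell types were low. In the endodermis, CASP1, which builds the Casparian strip, read 24.8, 29.8 and 23.2 FPKM, CYP86A1, a suberin hydroxylase, 16.4, 15.5 and 25.9, and SHR, the regulator that specifies the layer, 12.7, 14.2 and 14.8. Root hair genes were led by RHS13 at 57.1, 61.4 and 66.1 FPKM, with the wall protein PRP3 at 58.6, 54.9 and 35.2 and the arabinogalactan protein AGP3 at 40.7, 47.8 and 15.1. The root meristem list was lower still, with 3 of 5 genes at a mean of at least 1 FPKM. WER, PLT1, PLT2 and WOX5 read at most 2.28 FPKM in any library, and GL2, which also acts in leaf hairs, 6.90, 8.74 and 6.56. The plot of organ lists shows these groups from high to low.

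**Figure D3:**
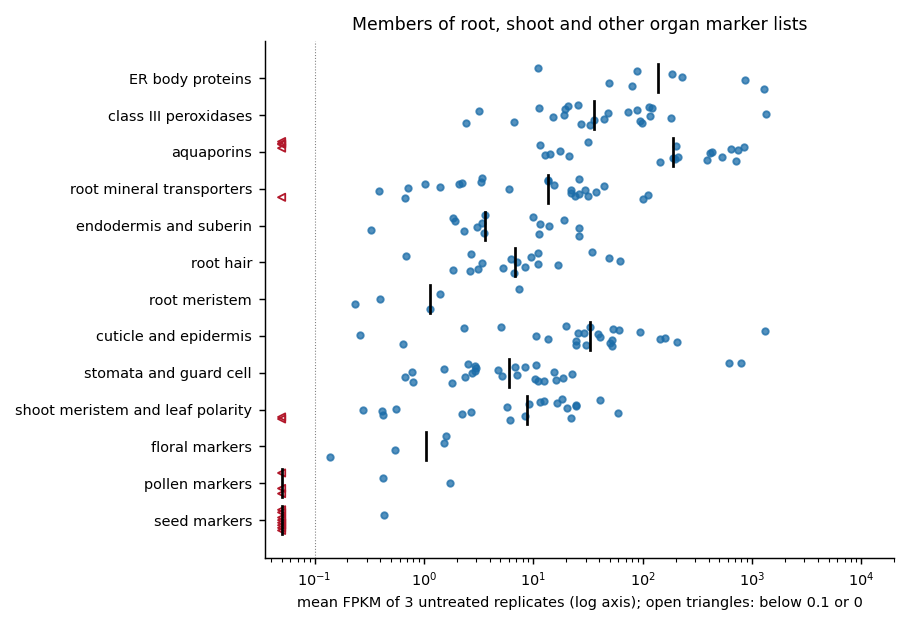
Mean FPKM (log axis) per gene in untreated wild-type seedlings. The lists are ER body proteins, peroxidases and aquaporins, then root, shoot and other organ lists. Points are genes, black bars are list medians, and open triangles are genes below 0.1 FPKM or listed at 0. ER body proteins have a median of 137 FPKM and aquaporins of 191, the root meristem list one of 1.14, and 8 of 9 seed genes are listed at 0.

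Shoot lists also ranged from abundant to low transcripts. In guard cells and myrosin cells, the myrosinases TGG1 and TGG2, which cleave glucosinolates, read 864, 862 and 636 FPKM and 561, 575 and 721 FPKM, so that their order was not the same in replicate 3. Regulators of stomatal patterning were far lower: EPFL9, the stomagen peptide, read 26.0, 21.2 and 20.2 FPKM and ER, the receptor kinase ERECTA, 19.7, 20.2 and 16.4. In the epidermis, the lipid transfer protein LTP1 read 1344, 1192 and 1431 FPKM. KCS6, which elongates fatty acids for cuticular wax, read 200, 174 and 245 FPKM, and its relative KCS10 was steadier at 142, 145 and 145 (CV 0.00967). PDF1, an epidermis-specific protein, read 117, 128 and 41.6 FPKM and was more than 2-fold below both others in replicate 3.

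Of 22 regulators of the shoot apex and leaf polarity, 16 had at least 1 FPKM and 10 at least 10. AS1, which represses meristem genes in leaves, read 69.3, 59.7 and 48.1 FPKM, TCP4, which ends cell division in leaves, 46.3, 52.2 and 23.0, and PHB, which specifies the upper leaf side, 16.5, 16.8 and 16.6. CLV3, the stem-cell peptide made in a few cells of the apex, was listed at 0. Of the flowering genes, the repressor SVP read 36.6, 35.1 and 35.2 FPKM and the florigen gene FT 3.34, 2.95 and 2.53.

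Clock genes that peak at different times of day were at very different levels. The evening complex genes ELF4 (148, 127 and 205 FPKM) and LUX (58.3, 62.2 and 74.4) and the evening gene TOC1 (35.4, 35.0 and 30.4) were the highest, with ELF3 at 27.99, 28.4 and 20.9. The morning genes CCA1 (0.743, 0.530 and 0.822 FPKM) and LHY (0.725, 0.548 and 0.357) were low in every library, and PRR9 was listed at 0. GI read 5.58, 5.74 and 5.46 FPKM and PRR7 2.57, 2.203 and 1.89. Between these lay genes of other times of day and photoreceptors: RVE4, a MYB-like activator, read 20.7, 23.4 and 15.3 FPKM, ZTL 19.2, 15.05 and 16.9, and FKF1 15.9, 12.7 and 20.04. PRR5 and PRR3, repressors of the afternoon, read 9.01, 7.08 and 6.17 FPKM and 9.03, 7.20 and 5.95, and RVE6, LNK1, LNK2, RVE1 and RVE8 at most 4.95. In all 3 replicates ELF4, LUX and TOC1 were thus the highest in that order and CCA1 and LHY were under 1 FPKM, while neighbours such as RVE4, ZTL and FKF1 were not in the same order; the hour of harvest was not analysed here.

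All 15 core hypoxia genes, a set induced when oxygen is short, had at least 1 FPKM: ADH1, an alcohol dehydrogenase, read 85.0, 129 and 146 FPKM, and LBD41, a transcription factor, 20.2, 32.0 and 44.6. PDC2 and PDC1, pyruvate decarboxylases that feed ethanol formation, read 73.9, 59.5 and 86.6 FPKM and 22.7, 30.8 and 30.8, SAD6, a fatty acid desaturase, 55.3, 78.1 and 59.5, and HB1, a haemoglobin, 47.2, 70.4 and 68.3. PCO1, an oxidase that marks regulators for degradation when oxygen is present, read 6.42, 14.7 and 18.1 FPKM and was at least 2-fold below both others in replicate 1. The sucrose synthases SUS1 and SUS4 read 21.9, 26.4 and 30.1 FPKM and 15.6, 20.5 and 18.9, and HRE1, HRA1, PCO2, ETR2, CML38 and HRE2 at most 10.8. In 8 of the 9 that averaged 10 FPKM or more replicate 1 was the lowest, against 29.9% of all genes.

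Enzymes of nitrogen assimilation were high and steady. GLN2, the plastid glutamine synthetase, read 1020, 965 and 1056 FPKM. NIA2 held 83.8% of nitrate reductase at 739, 777 and 841 FPKM. The list held 0.414 ± 0.00682% of nuclear FPKM with a median CV of 0.112.

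The protein-making machinery was the second large class. The 293 loci of cytosolic ribosomal proteins, taken by product name, held 8.69 ± 0.405% of nuclear FPKM, and 267 of them had at least 1 FPKM. The name also takes in LOS1, an elongation factor, and a few proteins that may belong to organelle ribosomes. AT3G53430, of the L11 family, was the highest at 979, 1288 and 2155 FPKM, AT5G18380, of the S5 family, read 1060, 1139 and 1356, and AT5G15200 1087, 1143 and 884. AT2G43460, of the ribosomal L38e family but outside the name pattern, was the most variable of the 100 most abundant genes at 542, 720 and 2020 FPKM (CV 0.737). Of 12 translation factors and ubiquitins 10 were highest in replicate 3, against 44.6% of all genes, UBQ10 at 1865, 1675 and 2327 FPKM and UBQ5 at 969, 1004 and 1929. The metallothioneins, which bind copper and zinc, had no stable order. MT2B read 2557, 2626 and 4396 FPKM, MT3 2751, 2945 and 3151, and MT2A 1312, 1151 and 2966. MT1A, of which every 31-base stretch also occurs in transcripts of other loci, read 2738, 2649 and 1051 FPKM.

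Genes used as internal references for quantitative PCR differed in level by over 2 orders of magnitude. ACT2, an actin, was the least variable of the 12 at 455, 472 and 507 FPKM (CV 0.0546). YLS8 was the most variable at 223, 251 and 135 FPKM (CV 0.299). PP2AA3, a phosphatase subunit, read 33.1, 31.5 and 44.3 FPKM, UBC21 21.8, 23.7 and 24.2, RHIP1 35.3, 39.5 and 43.1, and SAND 14.95, 15.6 and 11.8. ACT7 read 304, 295 and 231 FPKM, GAPC2 924, 1021 and 761 and EF1A-A4 1816, 1856 and 1545, each lowest in replicate 3. The remaining references, TIP41-like (14.7, 17.36 and 11.3 FPKM) and an F-box gene (5.32, 3.62 and 3.603), were low.

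The spread between replicates exceeded counting error at every level. Over 9854 protein-coding genes that averaged 10 FPKM or more and had a transcript of at least 300 nt the median CV was 0.140, with 10% of genes below 0.0483 and 10% above 0.325. Between 10 and 30 FPKM the median CV was 0.144 against 0.0684 expected from counting reads alone, and at 1000 FPKM or more it was 0.172 against 0.00925. The median CV therefore hardly differed with level above 10 FPKM, whereas the part due to counting shrank. In the range from 1 to 3 FPKM the median was 0.328 against 0.209 expected.

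**Figure D4:**
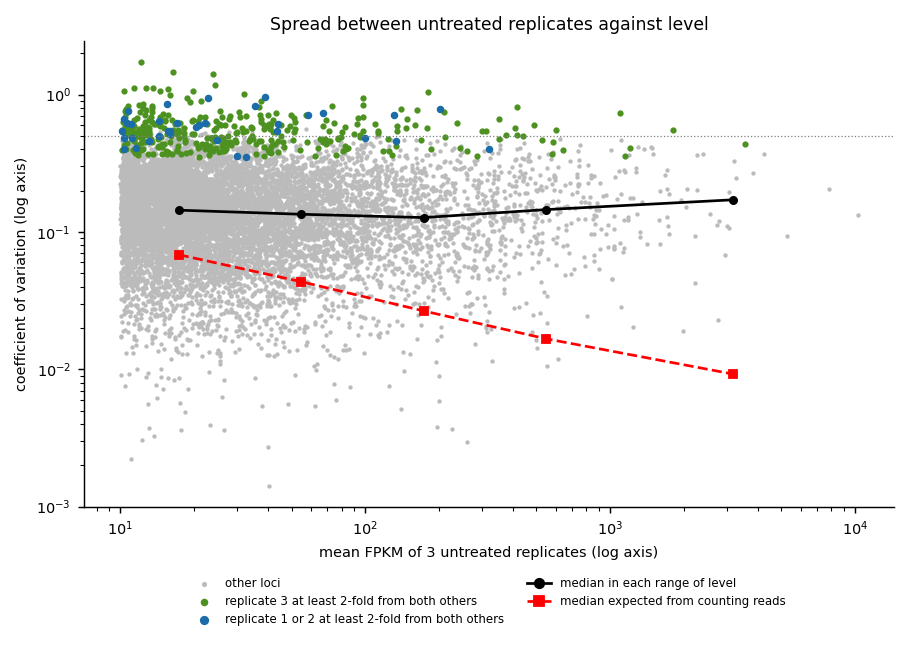
Coefficient of variation over 3 untreated libraries against mean FPKM (both log axes) for 9854 nuclear protein-coding genes; green and blue points are genes in which a replicate was at least 2-fold above or below both others, the black line is the median in each range of level and the red dashed line the median expected from counting reads. The black line stays between 0.127 and 0.172 while the red line drops from 0.0684 to 0.00925.

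Most large deviations lay in replicate 3. A gene was counted when one library was at least 2-fold above or below both others. Replicate 3 was above in 149 genes (1.51% of 9854) and below in 188 (1.91%). Replicate 1 was above in 16 (0.162%) and below in 6 (0.0609%), and replicate 2 above in 7 (0.071%) and below in 18 (0.183%). A CV over 0.5 was found in 229 genes (2.32%), 187 of them with replicate 3 apart, and in 46 genes when replicate 3 was left out. The SD over genes of a replicate's log2 deviation from the other libraries was 0.484 for replicate 3, against 0.308 and 0.312 for replicates 1 and 2; the median counting SD was 0.136, 0.107 and 0.116. The deviation of replicate 3 was related to base composition across genes (Spearman's rho of -0.17 with GC content, n = 9854, a description). Its median over 5 equal groups by transcript GC went from 0.13 on the log2 scale (GC of 23.1 to 39.6%) to -0.09 (43.4 to 54.1%). The part of depth and base composition in the deviations was not tested.

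The 20 genes with the largest CV had varied functions, and several were short. AT3G13240, of no named function, read 36.6, 0 and 0 FPKM and had the largest CV of all, 1.73. BHLH100, a transcription factor of the iron response, read 44.1, 3.66 and 1.51 FPKM. MAP18, a protein that binds microtubules, read 64.0, 77.6 and 397 FPKM, the most abundant of the 20. XPL1, a methyltransferase of phosphocholine synthesis, read 23.7, 67.9 and 4.41 FPKM, high in replicate 2 and low in replicate 3. PR1, WRKY45 and GSTF6 were also highest in replicate 3. PR1, the marker of salicylate signalling, read 12.5, 7.98 and 43.4 FPKM. The WRKY DNA-binding protein WRKY45 read 18.4, 17.9 and 76.6 FPKM and the glutathione transferase GSTF6 49.5, 39.7 and 205. The other members of the 20 were AT2G22880, AT1G53633, AT3G27027, RTFL14, AT5G18661, AT5G45430, AT3G18250, IDL3, EHB1, AT3G05550, AT2G14247, TOM7-2 and AT1G13609, of which AT2G22880, AT1G53633, AT5G45430, AT3G18250, IDL3, EHB1 and AT3G05550 were also highest in replicate 3, and AT3G27027, RTFL14, AT5G18661 and TOM7-2 were listed at 0 in replicate 3.

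Genes of iron uptake were highest in replicate 1. The list of 25 iron genes was drawn up after BHLH100 was seen. IRT1, the root iron transporter, read 16.0, 1.26 and 0.703 FPKM. Its partner FRO2, the ferric reductase, read 1.84, 0.0673 and 0.2497 FPKM, and the regulators BHLH38, BHLH39 and BHLH101 8.49, 0.836 and 0.388, 20.3, 1.62 and 0.859, and 5.58, 0.854 and 0.528. All of these were highest in replicate 1, while FIT, the regulator that partners these factors, read 4.59, 4.72 and 7.07 and the iron store FER1 50.2, 52.6 and 54.7. BTS, a ubiquitin ligase that restrains the response, read 49.6, 19.99 and 26.4 FPKM and OPT3, a phloem iron transporter, 131, 63.7 and 86.9. Of the 13 list members that averaged 10 FPKM or more, 8 were highest in replicate 1, against 27.4% of all genes. In 3 of the 13 replicate 1 was at least 2-fold above both others, against 0.162% of all genes. BHLH100, which prompted the list, itself had replicate 1 at least 2-fold above both others. The counts are therefore not independent of how the list was chosen.

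Replicate 2 was low in genes of jasmonate, the wound hormone. LOX2, the lipoxygenase that starts its synthesis, read 790, 409 and 526 FPKM, and AOC2, a later enzyme, 358, 177 and 423. VSP1, a storage protein that jasmonate induces, read 191, 68.4 and 142 FPKM, and PDF1.2a, a defensin, 16.7, 2.51 and 6.99. Replicate 2 was lowest in 9 of 10 members with at least 10 FPKM, against 30.1% of all genes, with a median log2 deviation of -0.67, and VSP2 was the exception at 155, 75.6 and 68.2. Genes of touch and rapid stress were also lowest there in 7 of 9, such as ZAT10, a zinc finger repressor, at 28.2, 12.2 and 57.3 FPKM and TCH3, a calmodulin-like protein, at 62.9, 35.2 and 126. Glutathione transferases, a family chosen after values were seen, were lowest in replicate 2 in 15 of 22, against 30.1% of all genes. They were highest in replicate 3 in 17 of 22, against 44.6% of all genes. In all 3 groups replicate 2 was thus the lowest library for most genes.

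Replicate 3 was low in arabinogalactan proteins and in 2 related product-name groups, all chosen after values were seen. Arabinogalactan proteins, which carry large sugar chains at the cell surface, were lowest in replicate 3 in 19 of 22 genes with at least 10 FPKM, against 40.02% of all genes, and at least 2-fold below both others in 12 (1.91% of all genes). AGP15 read 1342, 1608 and 867 FPKM, AGP9 271, 362 and 73.7 and AGP1 76.1, 84.3 and 10.8. Their median log2 deviation in replicate 3 was -1.43 and their median CV 0.485; AGP14 was an exception at 34.4, 50.6 and 49.3. Among fasciclin-like arabinogalactan proteins 10 of 11 were lowest in replicate 3, FLA8 at 309, 290 and 129 FPKM, whereas FLA2 read 124, 134 and 152. A group of 207 loci with extensin or proline-rich in the product name was lowest in 64 of 78, with EXT3, an extensin of the cell wall, at 767, 819 and 217 FPKM; the name also takes in proteins outside the wall, such as ELF3 and CHUP1. The median transcript GC of the 3 groups was 40.4, 43.4 and 42.5%, against 41.6% over all genes. Of the 5 GC groups of all genes, the second (39.6 to 41.1%) holds the first of these medians and had a median log2 deviation of 0.07 in replicate 3. The fourth (42.1 to 43.4%) holds the other medians and had one of -0.02. The part of base composition in these differences was not tested.

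Among genes that averaged 50 FPKM or more, the steadiest had varied functions. AT1G57720, the gamma chain of elongation factor EF1B, read 261, 260 and 262 FPKM (CV 0.00297), the smallest CV of this set. CHLM, an enzyme of chlorophyll synthesis, read 197, 196 and 198 FPKM, and CDC48, an ATPase that extracts proteins for degradation, 141, 140 and 140. VAMP721, a vesicle fusion protein, read 75.5, 75.4 and 76.2 FPKM and the clathrin light chain CLC2 85.5, 86.5 and 86.7. With JAL33, TIP2;2, AT1G47530, AT3G52500 and AT5G66860 these were the 10 smallest CVs of the set, each below the CV that counting error alone gives on average, so their order among themselves is not resolved at this depth.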

How the data were processed

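The deposited values are FPKM made by the authors, in 2 tables of the whole series; per the submitters' processing notes Cufflinks 2.2.1, FastQC 0.10.1 and build TAIR10 were used, and the aligner and strand use are not given in the sources used here. Per the labels' protocols, RNA was isolated from seedlings, enriched for polyA transcripts and made into Ion Torrent libraries. All 12 sample columns of the tables were matched to samples by name, and only the 3 untreated wild-type columns of the table with doxycycline were used, with the wild-type columns of the other table as an alternative.

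The 3 libraries were averaged and their SD and CV computed (pandas 2.3.3, numpy 2.4.6, Python 3.11.15), with no test, since there is one group. Log2 values use a pseudocount of 1. Depth was taken from the steps of low values: in 78.9% to 88.7% of low genes the ratio of a pair of libraries matched small whole numbers (up to 6, tolerance 0.005), against 1.57% to 2.63% at wrong steps. The counting part of a CV follows from that depth and the transcript length. FPKM divides by length, so loci under 300 nt were left out of ranks and spread of nuclear protein-coding loci. Organelle loci had no matched transcript length and were ranked without this filter. A listed 0 can be a failed estimate. The steps and the counts of deviating genes were tested on simulated data.

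Symbols, coordinates and promoters came from RefSeq's TAIR10.1, which matched 32810 of 33557 loci and left 747 without a match. Symbols it lacks came from the gene lists. Shared sequence was measured as the percent of a transcript's 31-base stretches found, on either strand, in transcripts of other loci. Loci that overlap on the genome were not left out, so a high share can come from an overlapping locus and not a copy. The members and lists were chosen with earlier results of these data known. Named genes are the 20 most abundant and 5 highest of any kind, in each list the up to 4 highest, the members listed at 0 and the most and least variable, the 20 largest and 10 smallest CVs, and all genes of the reference, clock, hypoxia, seed, flower and pollen lists; they are given where the results turn on them. Other genes, the iron list and the families of arabinogalactan, fasciclin-like, extensin and glutathione transferase genes were chosen after their values were seen.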

Additional observations from a re-analysis of the deposited data

How the results depend on the processing

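No paired analysis was possible because there is one group and no contrast. The shares of organelle loci and of the 100 most abundant loci, the count of detected loci and the median share of dominant genes moved by less than the spread between replicates, or by less than 1.5 times for the count, under every alternative tried. The share of nuclear FPKM in all gene lists together was 31.7%, 30.5% over all loci with organelles and 26.3% weighted by length, which moved 32 of 45 single list shares and 21 of 62 shares of dominant genes beyond the replicate spread. The count of genes with a CV over 0.5 was 229, 1432 from 1 FPKM and 89 from 30 FPKM, and 46 to 439 with one replicate left out, the lowest without replicate 3. Genes apart in replicates 1, 2 and 3 numbered 22, 25 and 337; from 1 FPKM they were 287, 373 and 1402, from 30 FPKM 9, 7 and 139, at 3-fold 8, 3 and 69, and over all loci 73, 70 and 420. The mean correlation was 0.943, 0.903 with a pseudocount of 0.1 and 0.977 over all loci. In the 250 bases before the start only, the G-box and I-box were in 24.4 and 22.2% of light-harvesting and photosystem promoters (6.57 and 12.2% of all), and the telo-box and site II in 15.8 and 57.8% of ribosomal protein promoters (4.45 and 19.4% of all). The cause was not tested. The table with mrpl1-1 gave the same shares. A level under the floor of 3 reads cannot be told from 0.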

Other observations

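Transcripts of growth and of stress that the comparisons above did not cover are given here as values. Of 13 tubulins, the building blocks of microtubules, 10 were highest in replicate 2, against 28.04% of all genes; TUA4 read 368, 405 and 314 FPKM and TUB9 was the steadiest at 125, 129 and 134. Histone genes held 0.642 ± 0.0763% (SD, n = 3) of nuclear FPKM, and AT5G10980 was the most variable of them at 204, 221 and 505 FPKM. Among cold and dehydration genes, COR6.6 read 172, 191 and 305 FPKM, COR47, a dehydrin, 189, 225 and 236, and COR15A, which protects chloroplast membranes, 16.9, 14.7 and 46.5. Their regulators CBF1 and CBF2 were listed at 0 in replicates 2 and 3. Replicate 3 was the highest in 6 of the 8 cold genes that averaged 10 FPKM or more, against 44.6% of all genes.

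Among chaperones, the constitutive HSC70-1 read 1526, 1419 and 1296 FPKM and HSP90-2 166, 165.6 and 172, while the heat-induced HSP101 read 5.51, 4.42 and 3.35 FPKM and HSFA2 1.399, 1.25 and 1.85. The glutathione transferase GSTF9 was the highest of its family at 1773, 1503 and 1869 FPKM. In the salicylate list PR2, a glucanase of defence, read 15.7, 2.69 and 2.63 FPKM, highest in replicate 1, whereas PR1 was highest in replicate 3. DIN10, a gene of sugar shortage, read 93.1, 92.9 and 75.5 FPKM, and ASN1, the asparagine synthetase of darkness, 4.56, 8.07 and 4.40.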
